A study of Mus musculus with 6 samples.

Results

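The 10 genes described here encode enzymes and partner proteins that write, copy or erase DNA methylation or carry out Polycomb silencing. They were listed by name for that role, and all 10 were found among the 23951 genes of the expression table. They are Dnmt1, Uhrf1 and Hells, Dnmt3a and Dnmt3b, Tet1, Tet2 and Tet3, and Ezh2 and Suz12.

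RNA was sequenced from 3 mouse melanoma cell lines, with 2 libraries per line. B16-F1, obtained from the cell bank ATCC, is labelled as having low metastatic potential. B16-F1R2 came from a metastasis in a lymph node. B16-F1R2L came from a lung metastasis that itself arose from a lymph node metastasis. The cells of all 3 lines were untreated and grown in the same medium. B16-F1R2 and B16-F1R2L were received from another laboratory than B16-F1, so the line and where it was kept cannot be told apart. Each line is a single culture line and not a set of independently derived metastases. Nothing in the labels tells if both libraries of a line are from separate cultures, so the spread between them may be technical. The comparisons ask how the levels of these genes differ between B16-F1 and the lines derived from metastases.

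DNA methylation is placed on cytosines that precede a guanine. Dnmt3a and Dnmt3b set it de novo, Dnmt1 copies it to the new strand after replication with the help of Uhrf1, and the Tet enzymes oxidise it as a step towards its removal. Polycomb repressive complex 2 (PRC2), with the catalytic subunit Ezh2 or Ezh1 and the subunits Suz12 and Eed, methylates lysine 27 of histone H3, a mark that Polycomb repressive complex 1 (PRC1) can bind. In melanocytes and melanoma both systems are studied as regulators of differentiation genes and of growth.

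Levels are given as FPKM, read fragments per kilobase of transcript and per fixed number of mapped reads, as the authors deposited them. The depth was estimated at 12100000 to 14400000 reads per library, and 10617 to 11168 genes reached 1 FPKM. The 7 melanocyte markers were detected in every library. Their summed level was 15000 FPKM in both B16-F1 libraries, 7910 to 8120 FPKM in B16-F1R2 and 8920 to 8930 FPKM in B16-F1R2L. In limma 6 of the 7 fell in each metastasis line, where 27.2% (B16-F1R2) and 27.1% (B16-F1R2L) of all tested genes fell, while Mitf rose in B16-F1R2L by 0.40 on the log2 scale (adjusted p = 0.0032), where 29.5% of all tested genes rose. The summed markers of leukocytes (1.01 to 2.67 FPKM, all but Cd68 under 1 FPKM), fibroblasts (0.735 to 2.31 FPKM), endothelial cells (0 to 1.26 FPKM) and epithelial cells (0.044 to 0.276 FPKM) were low throughout. Fibroblast and endothelial sums were higher in both metastasis lines, through Col1a2 and Pecam1. The part of these differences in the results below was not tested.

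The 10 genes spanned a wide range of levels, with Uhrf1 at the top. In B16-F1 the mean levels ran in the order Uhrf1 (149.5 FPKM), Dnmt1 (75.9 FPKM), Ezh2 (68.8 FPKM), Suz12 (44.0 FPKM), Hells (26.8 FPKM), Dnmt3a (12.5 FPKM), Tet3 (10.2 FPKM), Dnmt3b (2.16 FPKM), Tet2 (2.13 FPKM) and Tet1 (0.624 FPKM). The libraries of neighbours in this order did not overlap, except for Dnmt3b and Tet2. Uhrf1 was first and Tet1 last in all 3 lines. Ezh2 stood above Dnmt1 in B16-F1R2 and B16-F1R2L and below it in B16-F1. Dnmt3a stood above Tet3 in B16-F1, overlapped with it in B16-F1R2 and lay below it in B16-F1R2L. Dnmt1, Ezh2 and Uhrf1 had higher mean levels than 87.9%, 88.2% and 93.1% of the tested genes, against 12.8% for Dnmt3b and 14.0% for Tet2.

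**Figure D1:**
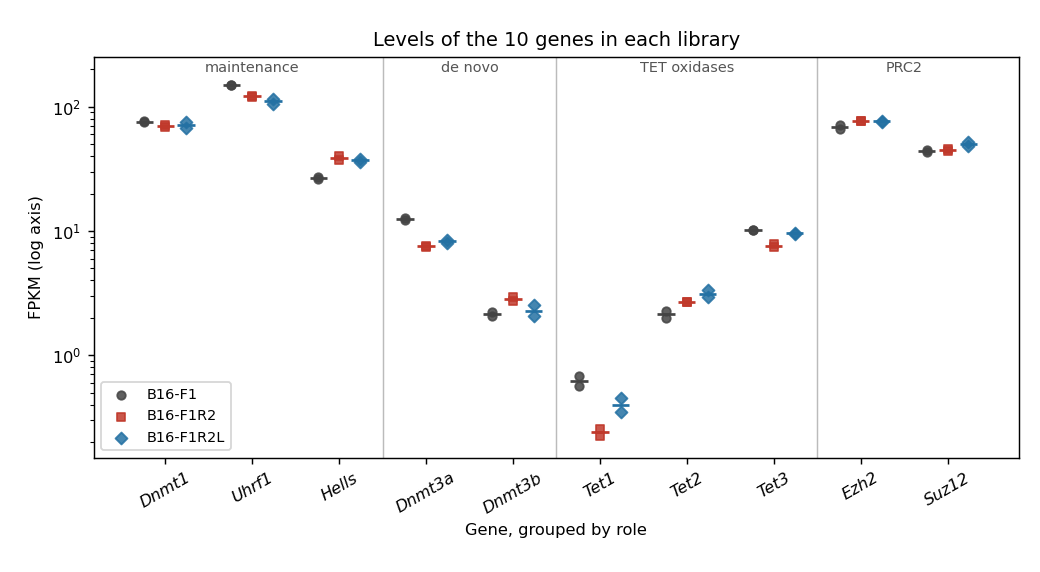
FPKM of the 10 genes in each of the 6 libraries (log axis), grouped by role; each point is 1 library and the short line is the mean of the 2 libraries of a line. The de novo gene Dnmt3a sits at 12.2 to 12.8 FPKM in B16-F1 and at 7.45 to 8.51 FPKM in the other lines, and Hells at 26.3 to 27.4 FPKM against 36.0 to 40.3 FPKM.

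The tests used limma across all genes, on log2(FPKM + 0.1), for the 11379 genes that reached 1 FPKM in 2 or more libraries; a gene was called when its adjusted p (Benjamini-Hochberg) was under 0.05. Of the 10 genes, 9 entered the test, and Tet1 stayed under the filter. In B16-F1R2 against B16-F1, 2 of the 9 were called higher (Hells and Ezh2) and 3 lower (Dnmt3a, Tet3 and Uhrf1). Over all tested genes 28.2% were called higher and 27.2% lower. In B16-F1R2L against B16-F1, 4 were called higher (Hells, Tet2, Suz12 and Ezh2) and 2 lower (Dnmt3a and Uhrf1), beside 29.5% higher and 27.1% lower over all tested genes. In B16-F1R2L against B16-F1R2, Tet3 alone was called, as higher, beside 12.1% higher and 10.5% lower. With 9 genes, these shares are near those of all genes. The median size of the log2 difference over the 9 genes was 0.32, 0.18 and 0.14 in the 3 comparisons, and over all tested genes 0.28, 0.28 and 0.16. The comparisons share libraries, so they are not independent of each other.

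**Figure D2:**
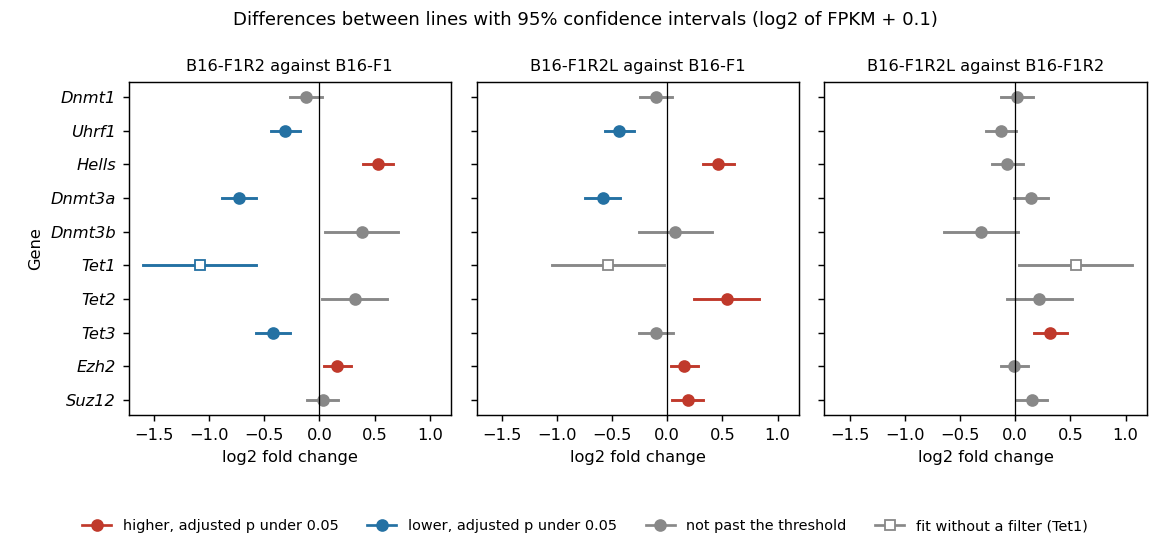
log2 fold changes of the 10 genes with 95% confidence intervals in the 3 comparisons; red and blue mark genes called higher and lower, grey those past no threshold, and the open square is Tet1 from a fit without a filter on low values. Dnmt3a lies lowest of the 9 tested genes in both comparisons with B16-F1, at -0.73 and -0.59, and Hells lies at 0.53 and 0.46.

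Dnmt3a had the largest difference of the 9 tested genes between B16-F1R2 and B16-F1. It encodes a de novo methyltransferase (chromosome 12, 3806007 to 3914443, plus strand, NCBIM37, the assembly that mm9 names) and was at 12.8 and 12.2 FPKM in B16-F1, 7.45 and 7.54 FPKM in B16-F1R2, and 8.06 and 8.51 FPKM in B16-F1R2L. Both B16-F1 libraries lay above the 4 others, and B16-F1R2L lay slightly above B16-F1R2. The log2 fold change was -0.73 (SE 0.065, 95% interval -0.88 to -0.57, adjusted p = 2.0e-04) in B16-F1R2 and -0.59 (SE 0.065, 95% interval -0.74 to -0.43, adjusted p = 5.0e-04) in B16-F1R2L against B16-F1. The levels correspond to roughly 1400 to 1500 reads per library in B16-F1 and 960 to 1200 in the other lines. B16-F1R2L and B16-F1R2 were 0.14 apart (95% interval -0.01 to 0.30, adjusted p = 0.16).

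Dnmt3b, the other de novo methyltransferase (chromosome 2, 153475186 to 153513466, plus strand), did not follow Dnmt3a. Its levels were 2.24 and 2.08 FPKM in B16-F1, 2.96 and 2.72 FPKM in B16-F1R2, and 2.05 and 2.51 FPKM in B16-F1R2L. The B16-F1R2 libraries were above all others, but the difference from B16-F1, 0.38 on the log2 scale (95% interval 0.05 to 0.71), missed the threshold (adjusted p = 0.054). Over 18 other settings this difference ranged from 0.12 to 0.46, and 7 of them called it. Against B16-F1, B16-F1R2L differed by 0.07 (95% interval -0.26 to 0.40, adjusted p = 0.68), and the direction turned under quantile normalization (-0.39, adjusted p = 0.047) and without B16-F1R2L replicate 2 (-0.07). Between the metastasis lines the value was -0.31 (95% interval -0.64 to 0.02, adjusted p = 0.15), and quantile normalization called it (-0.51, adjusted p = 0.047). About 110 to 170 reads per library stand behind these values, and 15.7% of the transcript has a copy of at least 96% identity elsewhere, so the levels of Dnmt3b are less certain than those of Dnmt3a.

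The ratio of the de novo enzymes was taken within each library, from the FPKM as deposited. In B16-F1 the ratio of Dnmt3a to Dnmt3b FPKM was 5.71 and 5.88, in B16-F1R2 it was 2.52 and 2.77, and in B16-F1R2L it was 3.93 and 3.39. The 3 lines did not overlap, and B16-F1R2L lay between the others. Together they made up 16.7% and 15.7% of the summed FPKM of Dnmt1, Dnmt3a and Dnmt3b in B16-F1, and 11.9% to 14.1% in the 4 other libraries. These ratios are descriptions without a test. The differences of Dnmt3b from B16-F1 were not called. Under quantile normalization B16-F1R2L differed from B16-F1 by -0.67 in Dnmt3a and -0.39 in Dnmt3b on the log2 scale, where limma on the deposited values gave -0.59 and 0.07, so the size of that difference in the ratio depends on the scaling.

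**Figure D3:**
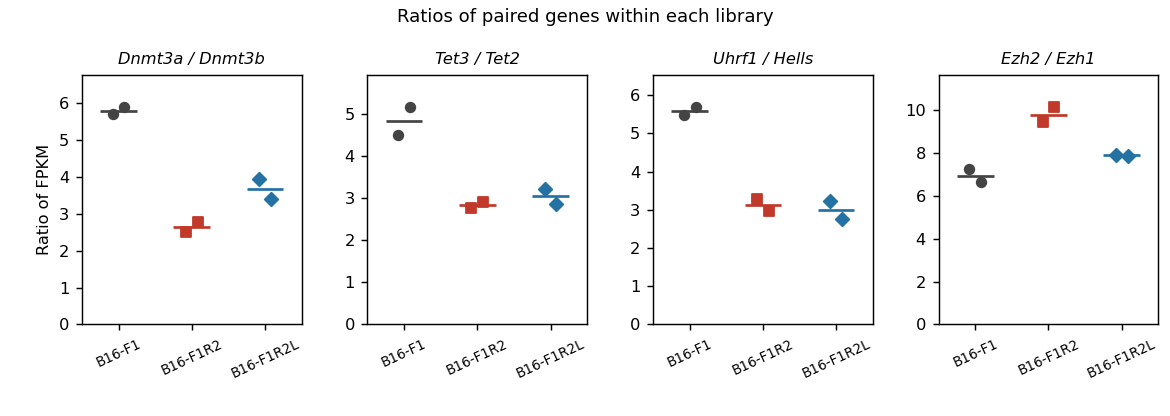
Ratio of the FPKM of paired genes within each library, for Dnmt3a to Dnmt3b, Tet3 to Tet2, Uhrf1 to Hells and Ezh2 to Ezh1; each point is 1 library, the line is the mean, and the axes start at 0. Dnmt3a to Dnmt3b, Tet3 to Tet2 and Uhrf1 to Hells are highest in both B16-F1 libraries, and Ezh2 to Ezh1 is highest in both B16-F1R2 libraries, at 9.42 and 10.1.

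Among the genes that copy methylation, Dnmt1, Uhrf1 and Hells took different courses. Dnmt1 (chromosome 9, 20711650 to 20757317, minus strand) was at 74.9 and 77.0 FPKM in B16-F1, 68.9 and 71.0 FPKM in B16-F1R2, and 74.8 and 66.9 FPKM in B16-F1R2L. No difference in Dnmt1 passed the test: the log2 fold change was -0.12 in B16-F1R2 (95% interval -0.26 to 0.03, adjusted p = 0.14) and -0.10 in B16-F1R2L (95% interval -0.25 to 0.04, adjusted p = 0.19). With GC content and length regressed out and a replicate block in limma, they were -0.02 (adjusted p = 0.64) and -0.04 (adjusted p = 0.46). The 2 libraries of B16-F1R2L lay further apart than those of any other line, and without its replicate 1 the difference from B16-F1 was called at -0.18 (adjusted p = 0.028). Without either B16-F1R2L replicate, which enters only through the shared estimate of the spread, the value of -0.12 for B16-F1R2 was also just called (adjusted p = 0.0497 and 0.0495).

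Uhrf1, which recognises hemimethylated DNA behind the replication fork and recruits Dnmt1, was lower in both metastasis lines. Its levels were 150 and 149 FPKM in B16-F1, 122 and 119 FPKM in B16-F1R2, and 116 and 105 FPKM in B16-F1R2L. The lines did not overlap. The log2 fold change was -0.31 (SE 0.055, adjusted p = 0.0037) in B16-F1R2 and -0.44 (SE 0.055, adjusted p = 8.3e-04) in B16-F1R2L against B16-F1. The gap of -0.13 between the metastasis lines (95% interval -0.26 to 0.003, adjusted p = 0.14) was called without B16-F1R2L replicate 1 (-0.20, adjusted p = 0.042) and with GC content and length regressed out, without (-0.14, adjusted p = 0.021) and with the replicate block (adjusted p = 0.011).

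The level of Uhrf1 carries an uncertainty of assignment. The gene (chromosome 17, 56442744 to 56462909, plus strand) has a near copy, Gm5648, on chromosome X (118447609 to 118450192). That copy matches 2590 bases at 97.7% identity, and 71.9% of the longest coding transcript has a copy of at least 96% identity. Of all 50-base stretches of the transcript, 28.8% occur exactly elsewhere in the genome. Gm5648 has no row in the table, so how the reads were divided cannot be seen.

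Hells, a chromatin remodeller needed for DNA methylation at repeats, went the other way. Its levels were 27.4 and 26.3 FPKM in B16-F1, 37.4 and 40.3 FPKM in B16-F1R2, and 36.0 and 37.9 FPKM in B16-F1R2L. Both B16-F1 libraries lay below all 4 others. Hells (chromosome 19, 39005405 to 39045541, plus strand) rose by 0.53 on the log2 scale (SE 0.058, 95% interval 0.39 to 0.67, adjusted p = 4.6e-04) in B16-F1R2 and by 0.46 (SE 0.058, 95% interval 0.32 to 0.60, adjusted p = 8.3e-04) in B16-F1R2L. With GC content and length regressed out and the replicate block, these rises were 0.41 and 0.25, both still called. The metastasis lines overlapped with each other, at a difference of -0.07 (95% interval -0.21 to 0.07, adjusted p = 0.41), which was -0.16 and called (adjusted p = 0.0058, and 0.0060 with the replicate block) once GC content and length had been regressed out. In B16-F1 the ratio of Uhrf1 to Hells was 5.47 and 5.68, in B16-F1R2 it was 3.28 and 2.96, and in B16-F1R2L it was 3.22 and 2.77.

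Genes of DNA replication are often bound near their start by E2F factors, and the starts of the 10 genes were searched for E2F words. The words were TTTGGCGC, TTTGCCGC, TTTCGCGC and TTTCCCGC, on both strands, in the 250 bases before each RefSeq start (GRCm38.p6, a later build than that of the expression values). A word was present before 4 of the 15 starts listed for the 10 genes, those of Dnmt1, Uhrf1, Hells and Suz12, and before 611 of all 32851 starts (1.86%). Every word contains CG, and these 4 stretches of 250 bases held 26 to 37 CG, against a median of 6 over all starts. The share over all starts is thus not that of starts equally rich in CG. The 30 bases around each word are printed along the strand of the gene. A listed word in this window is what these 4 genes share and the other 6 lack. Capitals mark the word.
Dnmt1: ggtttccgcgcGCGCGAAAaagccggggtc
Uhrf1: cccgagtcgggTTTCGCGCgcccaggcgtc
Hells: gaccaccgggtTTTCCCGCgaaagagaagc
Suz12: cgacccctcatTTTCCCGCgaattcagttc

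The Dnmt1 stretch is at chr9:20952824-20952853 on the minus strand, and its word reads on the opposite strand, starting 219 bases before 1 of the 3 starts listed for the gene. The Uhrf1 stretch is at chr17:56304117-56304146 on the plus strand, with the word 185 bases before 1 of its starts. The Hells stretch is at chr19:38930917-38930946 on the plus strand, with the word 62 bases before the start. The Suz12 stretch is at chr11:79992876-79992905 on the plus strand, with the word 219 bases before the start. Uhrf1 and Dnmt1 hold the word TTTCGCGC and Hells and Suz12 the word TTTCCCGC. The 4 genes did not move together: against B16-F1, B16-F1R2 differed by -0.31 in Uhrf1, 0.53 in Hells, -0.12 in Dnmt1 and 0.03 in Suz12 on the log2 scale. A match of letters is a description and shows no binding.

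Because Dnmt1, Uhrf1, Hells and Ezh2 are known to rise in dividing cells, the values of cell cycle genes are given beside them. Of 18 S phase genes, 8 rose and 1 fell in B16-F1R2 (28.2% and 27.2% over all tested genes), with a median log2 fold change of 0.14, and without B16-F1 replicate 1 or B16-F1R2 replicate 1 the 8 became 5. Ccne1, the cyclin that starts S phase, rose by 0.69 (adjusted p = 7.7e-05), and Mcm6, a part of the replicative helicase, by 0.47 (adjusted p = 1.9e-04). Of 10 mitosis genes, 6 rose and 0 fell, Mki67 by 0.55 (adjusted p = 1.9e-04). In B16-F1R2L against B16-F1, 4 S phase genes rose and 5 fell, near the 29.5% and 27.1% over all tested genes, and with any single library left out the counts ranged from 1 to 3 higher and 1 to 7 lower, both lowest without B16-F1 replicate 2. In the same comparison 4 mitosis genes rose and 3 fell, and the 3 became 1 without B16-F1 replicate 2 or B16-F1R2L replicate 2. In B16-F1R2L against B16-F1R2, 8 S phase genes fell and 0 rose (10.5% and 12.1% over all tested genes), by values such as -0.54 for Ccne1 (adjusted p = 0.0028) and -0.39 for Cdc6 (adjusted p = 0.0081), and 4 fell once the libraries were rescaled to a common sum. In the same comparison Uhrf1 differed by -0.13, Hells by -0.07, Dnmt1 by 0.02 and Ezh2 by -0.007, none of them called in the main test. The part of the cell cycle in the levels of the 10 genes was not tested.

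The Tet genes, whose products oxidise 5-methylcytosine, also differed in direction. Tet3 (chromosome 6, 83312367 to 83391672, minus strand) was the most abundant at 10.3 and 10.2 FPKM in B16-F1, 7.40 and 7.86 FPKM in B16-F1R2, and 9.53 and 9.55 FPKM in B16-F1R2L. B16-F1R2 was the low line, and the 3 lines did not overlap. Tet3 fell by 0.42 on the log2 scale in B16-F1R2 (SE 0.063, 95% interval -0.57 to -0.27, adjusted p = 0.0018). In B16-F1R2L against B16-F1 the value was -0.10 (95% interval -0.26 to 0.05, adjusted p = 0.21).

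Tet3 was the gene called between the metastasis lines, at 0.32 higher in B16-F1R2L (SE 0.063, 95% interval 0.17 to 0.47, adjusted p = 0.019). That call was lost without B16-F1R2 replicate 1 (adjusted p = 0.096), B16-F1R2L replicate 1 (adjusted p = 0.054) or B16-F1R2L replicate 2 (adjusted p = 0.081), each with a value of 0.28 to 0.32. It was also lost with only the 4 libraries of these lines (adjusted p = 0.051).

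Tet2 (chromosome 3, 133126643 to 133207354, minus strand) was at 2.28 and 1.98 FPKM in B16-F1, 2.67 and 2.69 FPKM in B16-F1R2, and 2.95 and 3.33 FPKM in B16-F1R2L. The lines did not overlap and stood in that order. The log2 difference from B16-F1 was 0.32 in B16-F1R2 (95% interval 0.02 to 0.62, adjusted p = 0.066), past no threshold. Over 18 other settings it ranged from 0.05 to 0.41, and 3 of them called it. In B16-F1R2L Tet2 rose by 0.54 (SE 0.12, 95% interval 0.24 to 0.83, adjusted p = 0.010). Without B16-F1 replicate 2 (0.44, adjusted p = 0.057) or B16-F1R2L replicate 2 (0.45, adjusted p = 0.056) that call was lost, and under quantile normalization the value was 0.12 (adjusted p = 0.41). Some 220 to 440 reads per library stand behind Tet2.

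Tet1 (chromosome 10, 62267318 to 62361866, minus strand) was under 1 FPKM in every library and stayed outside the main test. Its levels were 0.564 and 0.683 FPKM in B16-F1, 0.224 and 0.256 FPKM in B16-F1R2, and 0.349 and 0.449 FPKM in B16-F1R2L. The lines did not overlap, with B16-F1 highest and B16-F1R2 lowest. The long transcript gives about 100 and 120 reads in B16-F1, 43 and 51 reads in B16-F1R2 and 65 and 93 reads in B16-F1R2L. In a limma fit of 16483 genes without a filter, chosen after the values had been seen, the log2 fold change was -1.09 in B16-F1R2 (SE 0.20, 95% interval -1.60 to -0.58, adjusted p = 0.011), where 19.3% of genes were called lower. In B16-F1R2L it was -0.54 (95% interval -1.05 to -0.03, adjusted p = 0.086). With a pseudocount of 1 these values were -0.39 (adjusted p = 0.0066) and -0.21 (adjusted p = 0.039). A pseudocount of 0.01 gave -1.34 (adjusted p = 0.017) and -0.635 (adjusted p = 0.137).

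The summed Tet level was 13.1 and 12.9 FPKM in B16-F1, 10.3 and 10.8 FPKM in B16-F1R2, and 12.8 and 13.3 FPKM in B16-F1R2L. Tet3 made up 78.3% and 79.3% of that sum in B16-F1, while its share was 71.9% and 72.7% in B16-F1R2, followed by 74.3% and 71.7% in B16-F1R2L. Tet2 held 15.4% to 17.4% in B16-F1 and 23.0% to 25.9% in the other lines. Tet1 held 4.30% and 5.29% in B16-F1 and 2.17% to 3.37% elsewhere. The share of Tet3 was thus highest in both B16-F1 libraries, while the sum of the Tet genes in B16-F1R2L overlapped with that in B16-F1.

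The core genes of PRC2 differed by small amounts. Ezh2, the histone methyltransferase (chromosome 6, 47480273 to 47545340, minus strand), was at 71.5 and 66.0 FPKM in B16-F1, 77.0 and 76.8 FPKM in B16-F1R2, and 75.8 and 77.2 FPKM in B16-F1R2L. Both B16-F1 libraries lay below the 4 others, and the metastasis lines overlapped. The log2 fold change was 0.16 (SE 0.050, 95% interval 0.04 to 0.28, adjusted p = 0.031) in B16-F1R2 and 0.15 (SE 0.050, 95% interval 0.03 to 0.28, adjusted p = 0.037) in B16-F1R2L.

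These calls of Ezh2 were narrow, and 8 and 11 of 19 other settings lost them. In B16-F1R2 the call was lost without B16-F1 replicate 2 (0.10, adjusted p = 0.19), B16-F1R2 replicate 1 (0.16, adjusted p = 0.10) or B16-F1R2 replicate 2 (0.16, adjusted p = 0.096). In B16-F1R2L it was lost without any single library but B16-F1 replicate 1, with adjusted p of 0.058 to 0.21. Once GC content and transcript length had been regressed out of each library, the values were 0.09 in both lines (adjusted p = 0.079 and 0.082).

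Suz12, the subunit that holds PRC2 together (chromosome 11, 79806608 to 79847625, plus strand), was at 45.2 and 42.8 FPKM in B16-F1, 43.8 and 46.0 FPKM in B16-F1R2, and 48.2 and 51.9 FPKM in B16-F1R2L. B16-F1 and B16-F1R2 overlapped, and B16-F1R2L was above both. Suz12 differed by 0.03 (95% interval -0.11 to 0.17, adjusted p = 0.69) in B16-F1R2. In B16-F1R2L it was 0.18 higher (SE 0.057, 95% interval 0.05 to 0.32, adjusted p = 0.032). That call was lost without B16-F1 replicate 1 (adjusted p = 0.060), B16-F1 replicate 2 (adjusted p = 0.17) or B16-F1R2L replicate 2 (adjusted p = 0.13), and with GC content and length regressed out it was 0.07 (adjusted p = 0.12). As for Dnmt3b, part of the transcript (15.6%) has a copy of at least 96% identity elsewhere, the longest of 686 bases, so the level of Suz12 carries the same uncertainty of assignment. Between the metastasis lines Suz12 differed by 0.16 (95% interval 0.02 to 0.29, adjusted p = 0.097), and the regression on GC content and length called it (0.11, adjusted p = 0.041) but did not with the replicate block (adjusted p = 0.050).

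Of 10 other subunits of PRC2, 3 rose and 3 fell in B16-F1R2, near the shares of 28.2% and 27.2% over all tested genes, and 2 rose and 1 fell in B16-F1R2L, beside 29.5% and 27.1%. Phf1, which recruits PRC2 to chromatin, was at 4.31 and 4.89 FPKM in B16-F1, 1.85 and 2.11 FPKM in B16-F1R2, and 2.71 and 2.72 FPKM in B16-F1R2L. It fell by 1.18 (adjusted p = 3.3e-04) and 0.74 (adjusted p = 0.0025) on the log2 scale. Mtf2, its relative, rose by 0.45 (adjusted p = 0.0066) and 0.41 (adjusted p = 0.0099). Jarid2, another accessory subunit, rose by 0.35 (adjusted p = 0.0053) and 0.67 (adjusted p = 3.5e-04), and Aebp2 fell by 0.47 in B16-F1R2 (adjusted p = 0.0012). Ezh1, the second catalytic subunit, was at 9.87 and 9.96 FPKM in B16-F1, 8.17 and 7.60 FPKM in B16-F1R2, and 9.58 and 9.82 FPKM in B16-F1R2L. Against B16-F1, Ezh1 fell by 0.33 in B16-F1R2 (adjusted p = 0.0062) and differed by -0.03 in B16-F1R2L (adjusted p = 0.71). In B16-F1 the ratio of Ezh2 to Ezh1 was 7.25 and 6.62, in B16-F1R2 it was 9.42 and 10.1, and in B16-F1R2L it was 7.92 and 7.86. B16-F1R2 was highest without overlap.

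Of 22 PRC1 subunits, 2 rose and 10 fell in B16-F1R2, beside 28.2% and 27.2% over all tested genes. The median log2 fold change was -0.15, against 0.005 over all tested genes. The 2 became 1 without B16-F1 replicate 2 or either library of B16-F1R2. Phc1, a polyhomeotic subunit, was at 24.1 and 25.3 FPKM in B16-F1, 13.5 and 14.6 FPKM in B16-F1R2, and 14.3 and 13.7 FPKM in B16-F1R2L, and fell by 0.81 in both (adjusted p = 1.1e-04 and 1.0e-04). Scmh1, a partner of the polyhomeotic proteins, fell by 0.99 (adjusted p = 2.7e-04) and 0.83 (adjusted p = 5.5e-04). L3mbtl2 of a variant complex fell by 0.74 (adjusted p = 2.6e-04) and 0.81 (adjusted p = 1.7e-04). Cbx7, which binds methylated lysine 27, fell by 0.77 in B16-F1R2 (adjusted p = 0.0057) and was 0.74 higher in B16-F1R2L than in B16-F1R2 (adjusted p = 0.022). In B16-F1R2L against B16-F1, 2 rose and 10 fell (29.5% and 27.1% over all tested genes), with a median of -0.24, and the 10 became 5 without B16-F1 replicate 2 or after rescaling to a common sum.

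**Figure D4:**
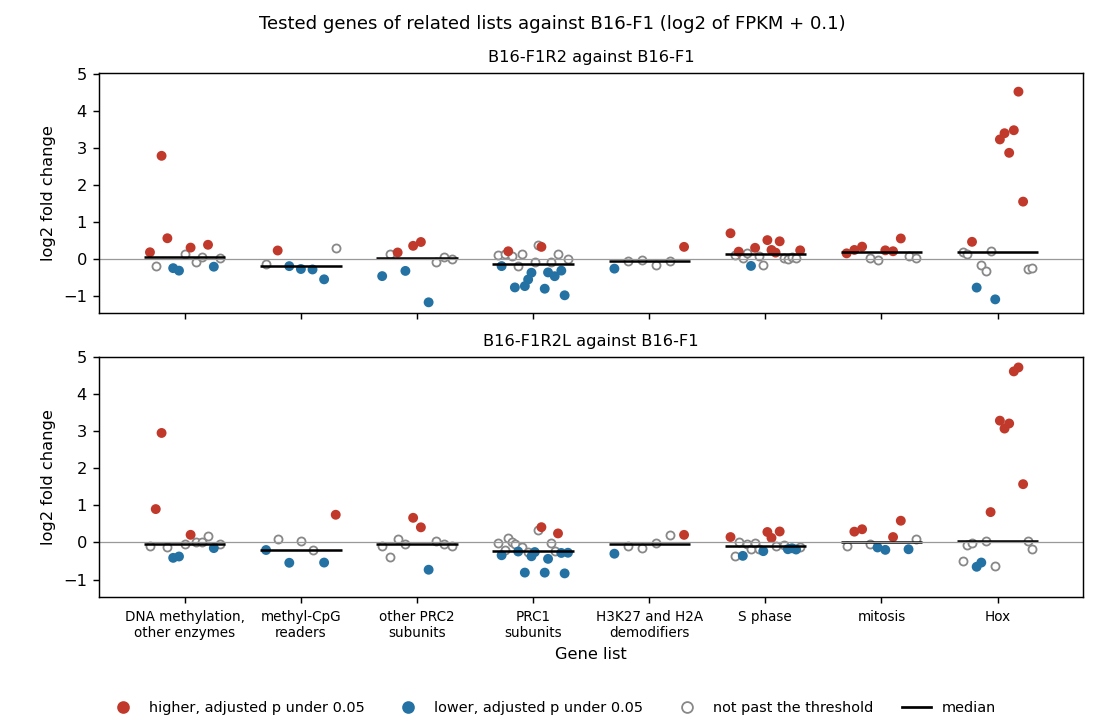
log2 fold changes against B16-F1 of the tested genes of 8 related lists, B16-F1R2 above and B16-F1R2L below; each point is 1 gene, filled red or blue when called higher or lower, and the black line is the list's median. The PRC1 points lie below 0 in the median of both panels (-0.15 and -0.24), with 10 called lower in each. Hox genes that are near 0 in B16-F1 entered the test only through the lines where they are high.

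Further enzymes of DNA methylation and demethylation showed 5 higher and 3 lower of 13 tested in B16-F1R2, not far from the 28.2% and 27.2% over all tested genes, and the 5 became 2 without B16-F1 replicate 1 and 3 without B16-F1R2 replicate 1. Gadd45b, a stress gene linked to demethylation, was at 1.67 and 1.26 FPKM in B16-F1, 11.3 and 9.83 FPKM in B16-F1R2, and 12.0 and 11.9 FPKM in B16-F1R2L. It rose by 2.78 (SE 0.14, adjusted p = 2.0e-05) and 2.96 (adjusted p = 1.5e-05). Tdg, the glycosylase that removes the oxidised bases made by Tet enzymes, rose by 0.38 in B16-F1R2 (adjusted p = 0.011). Idh2, which makes the cofactor of the Tet enzymes, fell by 0.32 (adjusted p = 0.0024) and 0.38 (adjusted p = 0.0012). In B16-F1R2L 3 rose and 3 fell, near the 29.5% and 27.1% over all tested genes, among them Gadd45a at 0.90 (adjusted p = 2.7e-04) and Idh1, which fell by 0.41 (adjusted p = 7.1e-04).

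Of 7 genes listed as readers of methylated DNA or their relatives, 1 rose and 4 fell in B16-F1R2, beside 28.2% and 27.2% over all tested genes. The 4 became 1 without B16-F1 replicate 1 or B16-F1R2 replicate 1, and 2 without either second replicate of these lines. Zbtb38 fell by 0.56 in B16-F1R2 (adjusted p = 0.0014) and 0.54 in B16-F1R2L (adjusted p = 0.0015). Mbd2 rose by 0.22 in B16-F1R2 (adjusted p = 0.0070), a call lost without B16-F1 replicate 2. In B16-F1R2L 1 rose and 3 fell, beside 29.5% and 27.1% over all tested genes, among them Mbd3, a family member that is not selective for methylated DNA, by 0.55 (adjusted p = 8.0e-04), and the rise, of Zbtb4, was not called without B16-F1 replicate 2 or either library of B16-F1R2L. Of 6 genes for enzymes that remove H3K27 methylation or H2A ubiquitin, or for their partners, 1 rose and 1 fell in B16-F1R2. Usp16 rose by 0.32 (adjusted p = 0.0026). Asxl1, a partner of the H2A deubiquitinase, fell by 0.27 (adjusted p = 0.0072), a call lost without B16-F1 replicate 2.

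Between the metastasis lines, 4 of the other PRC2 subunits were higher in B16-F1R2L and 1 was lower, beside 12.1% and 10.5% over all tested genes. Phf1 was higher by 0.44 (adjusted p = 0.044) and Aebp2 by 0.37 (adjusted p = 0.013). Jarid2 was higher by 0.32 (adjusted p = 0.024) and Ezh1 by 0.30 (adjusted p = 0.027). E130012A19Rik was at -0.53 (adjusted p = 0.046). Of the 22 PRC1 subunits 1 was higher and 4 were lower, not far from the same shares. Among the 6 genes for enzymes that remove these marks or for their partners, 0 passed the test in limma. The calls of this comparison over all genes depended on the libraries: 1378 genes were higher, and 297 without B16-F1R2 replicate 1.

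The pattern of Dnmt3a over the 6 libraries was most like that of Rhoq, Sgpl1, Kat7, Smurf2 and D10Bwg1379e, with Pearson r of 0.99837 to 0.99943 on log2(FPKM + 0.1). These are descriptions over 6 libraries that fall into 3 lines, with the highest values chosen from all tested genes. Rhoq, for example, was at 23.5 and 22.2 FPKM in B16-F1, 10.5 and 11.1 FPKM in B16-F1R2, and 12.1 and 13.1 FPKM in B16-F1R2L.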

How the data were processed

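Polyadenylated RNA of 3 lines (2 libraries each, 6 in all) was sequenced from a strand-marking kit. The authors aligned the reads to mm9 with TopHat2 2.0.10 and Bowtie 1.0.0 and deposited FPKM, in 1 table with the replicates kept apart. The submitters' processing notes also name Cuffnorm, without its role. Reads that matched several places were kept in the alignment up to a set number of places. The gene annotation, how such reads were shared out between genes and the use of strand in counting are not given in the sources used here. The antisense models Gm17629, Gm16706 and Gm10485 overlap Ezh2, Suz12 and Dnmt3a and have no row in the table. The authors tested counts with DESeq2, and limma was used here because the deposited values are not counts.

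From these FPKM, log2(FPKM + 0.1) was fitted with limma 3.58.1 in R 4.3.3 (eBayes with a trend) over all 6 libraries, without a block, for genes that reached 1 FPKM in 2 or more libraries. P-values were adjusted over all 11379 genes (Benjamini-Hochberg, threshold 0.05). They measure the spread between libraries only. Depth and reads per gene were estimated from the lowest FPKM steps of 8105 genes with 1 transcript and are approximate. Gene models were those of GENCODE on NCBIM37, shared sequence was found with BLAST 2.17.0 (at least 96% identity over 50 bases), and promoter sequence was taken from RefSeq. Figures were drawn with matplotlib 3.10.9.

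The 10 genes and all lists were chosen with earlier results of these data known. Named were all 10 genes, at most 4 called genes per list and comparison (those with the largest change), and the 5 genes most correlated with the member of largest change. Ezh1 was named as well, as the second catalytic subunit. The fit was tested on simulated data. The alternatives were other pseudocounts, filters, scalings and variance models, a replicate block, and leaving out each library. A GC and length correction (with and without the block), Tet1 without the filter and the scalings of the counts of genes off or on were added after seeing the data.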

Additional observations from a re-analysis of the deposited data

How the results depend on the processing

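Of 507 recomputed differences of the 9 tested genes, 426 kept their direction and their side of the threshold. Dnmt3a, Hells and Uhrf1 kept their calls against B16-F1 in both lines, and Tet3 in B16-F1R2, under every alternative but the demand for a log2 fold change of at least 1, which left 0 of the 9 genes in each comparison. That demand left 819 higher and 328 lower genes for B16-F1R2, 957 and 259 for B16-F1R2L, and 116 and 24 between the metastasis lines.

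The values that changed sign were small, but for Dnmt3b. In B16-F1R2, Suz12 was -0.037 with the GC and length correction, alone or with the replicate block, and ranged from -0.010 to 0.068 when 1 library was left out. In B16-F1R2L against B16-F1, Dnmt1 was 0.00087 after rescaling and 0.034 after quantile normalization. Dnmt3b there was -0.39 (adjusted p = 0.047) after quantile normalization, and -0.068 to 0.21 when 1 library was left out, the lowest without B16-F1R2L replicate 2. Between the metastasis lines, Dnmt1 was -0.0035 with median ratios and -0.013 with the GC and length correction, with or without the block. When 1 library was left out, Dnmt1 ranged from -0.063 to 0.097 and Ezh2 from -0.021 to 0.0058. After rescaling Hells was 0.038 and Ezh2 0.10, and after quantile normalization Ezh2 was 0.079. The cause was not tested.

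Rescaling each library to a common sum brought the median log2 fold change of all genes in B16-F1R2L to 0.12 against B16-F1 and 0.13 against B16-F1R2, from 0.02 in both. The share of higher among called genes went from 52.1% to 66.6% and from 53.7% to 81.0%, with 2043 lower genes in the first comparison, and 2079 higher and 489 lower in the second. Between the metastasis lines, lower genes were 743 without a filter, 650 without a trend and 644 with only 4 libraries (874 higher). The members called there were 2 under quantile normalization, 0 with only 4 libraries, 4 with the GC and length correction and 3 with that and the block. Leaving out 1 library gave 297 to 904 higher and 140 to 991 lower genes and 0 to 1 members there, 3 to 6 members in B16-F1R2L and 4 to 7 in B16-F1R2 against B16-F1. The lowest counts were without B16-F1R2 replicate 1, and those of 3 members without B16-F1 replicate 2 or B16-F1R2L replicate 2. Where a line keeps 1 library, it is assumed to vary like the other lines. Genes off in B16-F1R2L and on in B16-F1 numbered 48 under quantile normalization against 31, and those on in B16-F1R2 numbered 5 after rescaling against 3.

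The replicate numbers of the labels pair nothing that the labels name. The differences between replicates 1 and 2 correlated at 0.0519, -0.102 and 0.0789 across pairs of lines. With the replicate block, the calls for B16-F1R2 were 3141 higher and 3040 lower (3207 and 3098 without it), and the members called stayed at 5, 6 and 1. Depth limits Tet1, Dnmt3b and Tet2 most.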

Other observations

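Gene groups that these enzymes are known to help silence were read from lists. Of 15 germline genes, 8 were listed at 0 in all 6 libraries and 14 were under 1 FPKM in all. The exception was Tex101, listed at 0 in both B16-F1 libraries, at 2.60 and 2.35 FPKM in B16-F1R2 and at 3.02 and 3.72 FPKM in B16-F1R2L. Of 39 Hox genes, 8 were listed at 0 in all libraries and 16 were tested, of which 7 rose and 2 fell in each metastasis line. The shares of all tested genes that rose were 28.2% (B16-F1R2) and 29.5% (B16-F1R2L), and those that fell were 27.2% and 27.1%. Genes silent in B16-F1 pass the filter only where a metastasis line is high, so these counts lean upward. In the fit without a filter, 12 of 31 Hox genes and 3 of 7 germline genes were called higher in each metastasis line, beside 21.3% of all genes of that fit in B16-F1R2 and 23.2% in B16-F1R2L. That fit holds only genes above 0 in some library. Genes at 0 in B16-F1 enter it through the metastasis lines, so these counts lean upward too. Hoxb9 was at 0.356 and 0.200 FPKM in B16-F1, 4.33 and 3.69 FPKM in B16-F1R2, and 9.05 and 8.93 FPKM in B16-F1R2L. Hoxc6 was at 0 and 0.0558 FPKM, 2.49 and 3.03 FPKM, and 3.46 and 2.97 FPKM in the same order. Of the tested Hox genes, most that rose in each metastasis line were Hoxb genes, and those that fell were Hoxa genes.

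Over all genes, 168 were under 0.1 FPKM in both B16-F1 libraries and at least 1 FPKM in both B16-F1R2 libraries, and 32 showed the reverse. For B16-F1R2L against B16-F1 the counts were 192 and 31, and between the metastasis lines 7 were off in B16-F1R2 and on in B16-F1R2L and 3 the reverse. These are counts without a test. Under quantile normalization the 168 became 128 and the 32 became 47, while the 192 became 132 and the 31 became 48. Rescaling to a common sum turned 168 and 32 into 179 and 43, and 192 and 31 into 222 and 42. With median ratios they were 168 and 33, then 191 and 33. The size of the imbalance against B16-F1 thus depends on the scaling, while its direction stayed the same under these scalings.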
